A study of Mus musculus with 2 samples.

Results

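Liver CD8 T cells were compared between 2 groups of cells that shared 1 capture library, the second of the 2 libraries of the study. Cells with at least 1 transcript count (unique molecular identifier, UMI) of Cd8b1, at least 1 of Cd3e and 0 of Cd79a were chosen by these transcript values as CD8 T cells, and none of the 3 genes is reported as a result. These were 9221 of the 24111 cells of the library and of 34137 cells in both libraries. The library pooled CD45+ liver cells of P40-/-IL-2Ra-/- mice, which lack the p40 cytokine subunit and the α chain of the IL-2 receptor in every tissue, with cells of wild type (WT) mice. Both were on the C57BL/6 strain and 10 weeks old by the labels, whereas a younger age stands in the study's methods. The number of animals behind either group is not given in the sources used here. Cells had been stained with 49 oligonucleotide-tagged antibodies and with sample tags.

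The cell table of the authors gives the name WT to 7282 cells of this library, of which 719 met the rule, and gives no genotype to the other 16829 cells, of which 8502 met it. The 8502 cells are called unnamed below. They are mostly, but not certainly, cells of the P40-/-IL-2Ra-/- mice. WT cells that the authors filtered out, and microwells with more than 1 cell, would also be without a name. Each group was 1 sample, so no test was made. Intervals in brackets are at 95% and cover counting error only, with no part for differences among mice or among cells. Genotype, the individual mice and the choice of cells that received a name cannot be told apart.

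CD8 T cells recognise peptides on MHC class I and kill through perforin and granzymes, and they draw in other cells with the chemokines CCL3, CCL4 and CCL5. Under lasting stimulation they come to carry inhibitory receptors such as PD-1, LAG-3, TIM-3 and TIGIT together with the nuclear factor TOX, whereas naive cells keep LEF1, TCF1 and the IL-7 receptor. IL-2Rα, also called CD25, gives the IL-2 receptor its high affinity and is needed by regulatory T cells, and mice without it are known to develop autoimmune disease that includes the bile ducts. The p40 protein, encoded by Il12b, is shared by IL-12 and IL-23.

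The unnamed cells held 36018157 UMIs and the WT cells 2621533, with a median of 3621 and 3113 UMIs per cell, so WT values set the precision of each comparison. Mitochondrial transcripts made up a median of 5.57% and 6.80% of UMIs. Median antibody counts per cell were 1220 and 1635. Of the cell barcodes, 267 occurred in both libraries, 106 of them among the CD8 T cells, and leaving these cells out changed none of the counts by over 1.5 times. Levels are given as CPM, the summed UMIs of a gene per 1000000 UMIs of the group, and ratios as the log2 of unnamed over WT.

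The markers of CD8 T cells were present in both groups, but the WT cells were more mixed. Cd8a, which the rule did not use, stood at 1029.9 CPM in unnamed and 659 CPM in WT cells. The authors' cell type names of the 719 WT cells were CD8αβ T for 493 (68.6%), CD8αα T for 12, NKT for 99 (13.8%), CD4 T for 56, γδ T for 18, plasmacytoid dendritic cells for 16, NK for 14, macrophages for 7, monocytes for 3 and neutrophils for 1. Several defining markers of these cells were higher in the WT group, with 4 of 6 genes of CD4 and regulatory T cells, 5 of 7 of γδ T cells and 4 of 8 of NK and NKT cells past 2-fold lower in unnamed cells. Of all genes with at least 30 UMIs, 4.57% were past 2-fold lower. The summed levels of these 3 lists in unnamed and WT cells were 119 CPM and 247 CPM, 196 CPM and 332 CPM, and 2205 CPM and 1614 CPM. The last list includes Gzma and Eomes, which were higher in unnamed cells and are given below. Klrb1c, which encodes NK1.1, had at least 1 UMI in 5.30% of unnamed (451 of 8502, 4.84 to 5.80) and 20.7% of WT cells (149 of 719, 17.8 to 23.9), and Cd4 in 10.2% of unnamed (865 of 8502, 9.54 to 10.8) and 16.6% of WT cells (119 of 719, 13.9 to 19.5). The γδ T cell constant gene Trdc was found in 1.55% and 4.17% of cells. In B cells of the library (Cd79a at 2 or more UMIs, no Cd3e), which should lack these genes, the shares in unnamed and WT cells were 1.85% and 1.55% for Klrb1c, 3.99% and 2.63% for Cd4 and 0.741% and 0.471% for Trdc. NK1.1 antibody did not follow Klrb1c. It took 0.448% of antibody counts in unnamed and 0.340% in WT CD8 T cells, a log2 ratio of 0.40 (0.36 to 0.44). Its median was 5 and 4 counts per cell, and its log2 ratio in B cells was 0.45.

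Results were therefore also computed in a strict set, chosen after these values were seen, of cells with CD8β antibody above a gate and with 0 UMIs of Cd4, Trdc, Klrb1c, Zbtb16 and Siglech. It kept 65.5% of unnamed (5569 of 8502, 64.5 to 66.5) and 44.1% of WT cells (317 of 719, 40.4 to 47.8). A second set kept the unnamed cells as they were and limited WT to the 505 cells that the authors named CD8. At the edge of the rule, T cells with 0 UMIs of Cd8b1 had Cd8a at 216 CPM in unnamed and 92.8 CPM in WT cells, and those with 1 UMI had 804 CPM and 214 CPM. Cells with 1 UMI of Cd8b1 were 1106 of the unnamed and 221 of the WT cells.

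Il2ra, the gene that the knockout should lack (plus strand of chromosome 2 from 11642807 to 11693193 in GRCm38), was looked at first as a check of what the unnamed cells are. In CD8 T cells it stood at 5.16 CPM in unnamed (4.45 to 5.96) and 32.4 CPM in WT cells (25.9 to 40.1), a log2 ratio of -2.65 (-3.03 to -2.26). Over all cells of the library the values were 7.49 CPM and 59.6 CPM, and in CD4 T cells (Cd4 and Cd3e detected, no Cd8b1 or Cd79a) 14.7 CPM and 107 CPM. B cells did not show this order, with 4.49 CPM in unnamed (2.45 to 7.53) and 3.38 CPM in WT cells (1.80 to 5.77), a log2 ratio of 0.41 (-0.79 to 1.62). The transcript was thus low but not absent in unnamed cells. Of the 85 Il2ra UMIs in WT CD8 T cells, 41 lay in the 99 cells named NKT and 25 in the 493 named CD8αβ T. In the strict set only 42 and 5 UMIs were left, and the log2 ratio of -1.35 (-2.68 to 0.35) had an interval that held 0.

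CD25 antibody, which reads the protein of Il2ra, did not differ in the same way over all CD8 T cells. It took 0.163% of antibody counts in unnamed and 0.160% in WT cells, a log2 ratio of 0.03 (-0.03 to 0.10), with a median of 2 counts per cell in both groups, and 0.44 in the strict set. CD44-high cells are those above a gate on the antibody to CD44, a surface protein of antigen-experienced T cells. Within them CD25 antibody went in the direction of the transcript, with 0.137% of antibody counts in unnamed and 0.194% in WT cells and a log2 ratio of -0.50. B cells of the library, where unnamed and WT cells had 0.501% and 0.547%, had a larger share of this antibody than either CD8 group. Il12b, the p40 gene, was sparse but present in unnamed cells. Over all cells of the library it stood at 2.59 CPM in unnamed (2.22 to 3.02) and 3.87 CPM in WT cells (3.09 to 4.78), a log2 ratio of -0.58 (-0.96 to -0.18) from 168 and 86 UMIs. It went the other way in CD8 T cells, with 65 and 2 UMIs and a log2 ratio of 1.24 (-0.67 to 4.32), and in B cells, with 9 and 0 UMIs. Whether the mutant allele leaves a transcript that is counted is not given in the sources used here.

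CD8 T cells made up a much larger part of the unnamed cells. They were 50.5% of unnamed (8502 of 16829, 49.8 to 51.3) and 9.87% of WT cells (719 of 7282, 9.20 to 10.6), a difference of 40.6 percentage points (39.6 to 41.7). In the strict set the shares were 33.1% and 4.35%. The share depends on which WT cells kept a name, so it describes this library. Scrublet, a doublet caller, marked 5.54% of the unnamed and 9.60% of the WT CD8 T cells, and these cells were kept.

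Between the groups, unnamed CD8 T cells had more transcript of granzyme K, of CC chemokines, of several inhibitory receptors and of the factors EOMES, TOX and TOX2, and less of many naive T cell genes and of single genes such as Ccr9 and Itgae. Of 10211 genes with at least 100 UMIs over both groups, 393 (3.85%) were 2-fold or more higher in unnamed cells and 255 (2.5%) were 2-fold or more lower. The interval lay wholly past 2-fold for 84 of the former (0.823%) and 115 of the latter (1.13%). Lists of genes are described by their members with at least 30 UMIs, and among the 11809 genes with that minimum the median log2 ratio was -0.03, with 5.41% past 2-fold higher and 4.57% past 2-fold lower. With WT limited to cells named CD8, 6.25% of 10164 genes were past 2-fold higher and 1.48% past 2-fold lower. The plot of transcript levels shows the members named most often below.

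**Figure D1:**
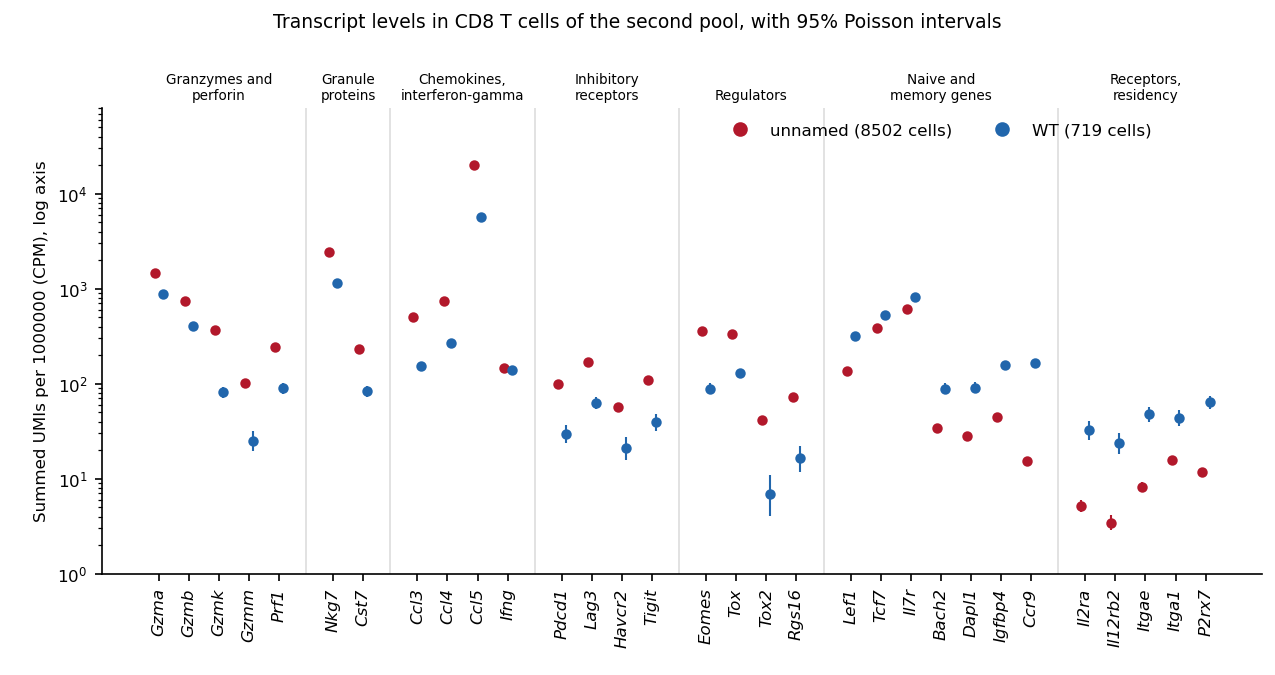
Level of 31 genes in CD8 T cells of the second pool, as summed UMIs per 1000000 on a log axis, with 95% Poisson intervals as bars where they exceed the point. Red points are the 8502 unnamed cells and blue points the 719 WT cells. Cytotoxic, chemokine, inhibitory receptor and regulator genes other than Ifng stand higher in unnamed cells, and the naive, memory, receptor and residency genes stand higher in WT cells.

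Among killing molecules the granzymes differed from each other. Gzmk, a granzyme of memory and exhausted CD8 T cells (minus strand of chromosome 13 from 113171608 to 113225908), was at 372 CPM in unnamed and 81.6 CPM in WT cells, a log2 ratio of 2.19 (1.99 to 2.39). Gzmm, another granzyme, was at 103 CPM in unnamed and 25.2 CPM in WT cells with a log2 ratio of 2.03 (1.68 to 2.40). Gzmm was at 0.67 (-0.49 to 2.14) without cells that held UMIs of other lineages (127 and 6 UMIs), and at 0.50 (0.11 to 0.91) in the CD44-high cells of the strict set described below. The ratios were smaller for Gzmb, the main granzyme of effector cells, at 0.87 (0.78 to 0.96), and for Gzma at 0.75 (0.69 to 0.81), although these had the higher levels of 745 CPM and 1474 CPM in unnamed cells. Gzmc, a granzyme of strongly activated cells, went the other way with 27 and 21 UMIs, 52.4% of the WT UMIs being in 3 cells.

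Perforin and several granule genes were also higher in unnamed cells. Prf1, which encodes perforin, was at 245 CPM in unnamed and 89.3 CPM in WT cells, a log2 ratio of 1.46 (1.27 to 1.65). Nkg7, a granule membrane protein, was at 2468 CPM in unnamed and 1160.0 CPM in WT cells, and Cst7, an inhibitor of granule proteases, had a log2 ratio of 1.46 (1.27 to 1.66). Of the 20 measured genes of the cytotoxic list, 8 were 2-fold or more higher and 1 (Gzmc) was 2-fold or more lower, with a median log2 ratio of 0.79. Among strict cells 14 of 19 were past 2-fold higher and the median was 1.33, against 7.44% of genes past 2-fold higher there at the same minimum of 30 UMIs and 6.23% of the 9420 genes with 100.

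The largest count difference lay in Ccl5, which encodes a chemoattractant for T cells and monocytes. It took 19912 CPM in unnamed and 5734 CPM in WT cells, a log2 ratio of 1.80 (1.77 to 1.82). Ccl3 and Ccl4, related chemokines of activated T cells, were at 1.70 (1.56 to 1.85) and 1.47 (1.36 to 1.58). Ifng, the gene of the cytokine IFN-γ, was at 146 CPM in unnamed and 139 CPM in WT cells, a log2 ratio of 0.07 (-0.08 to 0.23), with an interval that held 0, and Tnf, another effector cytokine, had a log2 ratio of -0.69 (-0.90 to -0.48). Ifng was higher in the strict set, at 1.00 (0.66 to 1.36), and Tnf was at -0.26 (-0.64 to 0.13).

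Several inhibitory receptors were higher in unnamed cells. Pdcd1, the gene of PD-1, stood at 99.2 CPM in unnamed and 29.8 CPM in WT cells, a log2 ratio of 1.74 (1.41 to 2.08). Lag3 followed at 1.45 (1.22 to 1.68), Havcr2 (TIM-3) at 1.42 (1.04 to 1.84) and Tigit at 1.48 (1.19 to 1.77). Of the 21 genes of the checkpoint and exhaustion list, 8 were 2-fold or more higher and 0 were 2-fold or more lower, with a median of 0.72, and 5 lay below 0. Within CD44-high cells 2 were past 2-fold higher, 11 lay above 0 and 10 below, and the median was 0.23. Of all genes with at least 30 UMIs there, 4.40% were past 2-fold higher, and the median was -0.09. Among strict cells 12 were past 2-fold higher and the median was 1.69. Ctla4, the gene of another inhibitory receptor, was less far apart at 0.35 (0.05 to 0.67), and Btla was at -0.32 (-0.64 to 0.01). With only cells of 500 or more antibody counts the median of the list was 0.35.

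Tox2, a relative of Tox (plus strand of chromosome 2 from 163203125 to 163324170), had the largest ratio among these regulators, at 41.6 CPM in unnamed and 6.87 CPM in WT cells and a log2 ratio of 2.60 (1.93 to 3.36). The WT value rested on 18 UMIs, and in the strict set on 2, where the log2 ratio was 4.38 (2.53 to 7.43). Without cells that held UMIs of other lineages, Tox2 had 102 and 5 UMIs and was at 0.61 (-0.65 to 2.27). Tox, a factor that sets the exhausted state, was at 332 CPM in unnamed and 129 CPM in WT cells, a log2 ratio of 1.36 (1.21 to 1.52). Eomes, the T-box factor of memory and exhausted CD8 T cells (plus strand of chromosome 9 from 118478212 to 118486132), was at 362 CPM in unnamed and 88.9 CPM in WT cells with a log2 ratio of 2.03 (1.84 to 2.22), whereas its relative Tbx21 (T-bet) was at -0.10 (-0.31 to 0.12). Rgs16, a regulator of G protein signalling, was at 2.13 (1.70 to 2.60). The orphan receptors of the Nr4a family, which follow antigen receptor signalling, did not share a direction. Nr4a2 was at 0.97 (0.77 to 1.18), Nr4a1 at -0.28 (-0.41 to -0.15) and Nr4a3 at -0.67 (-1.02 to -0.30).

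The antibodies to several of these receptors were higher in unnamed cells as well. Of 49 antibodies, 3 were 2-fold or more higher in unnamed cells (6.12%) and 3 were 2-fold or more lower (6.12%), counted as a share of all antibody counts of the group. The 3 higher ones were the antibodies to TIM-3 (CD366), LAG-3 (CD223) and TIGIT. CD366 took 0.221% of antibody counts in unnamed and 0.0451% in WT cells, a log2 ratio of 2.29 (2.18 to 2.41). CD223 had a log2 ratio of 1.31 (1.23 to 1.38) and TIGIT of 1.22 (1.02 to 1.43). PD-1 (CD279) was at 0.83 (0.77 to 0.88). These are sparse signals, with a median of 4 and 3 counts per cell for CD279 and 0 in both groups for TIGIT. The count of antibodies past 2-fold depended on the cells compared. In the strict set it was 7 higher (14.3%), namely CD366, TIGIT, CD11c, CD223, TER-119, CD16/CD32 and CD279, and 1 lower (2.04%), CD103, with CD49a at -0.61. Within CD44-high cells it was 2 higher (4.08%), CD366 and CD8b, and 8 lower (16.3%), and CD223 and TIGIT were at 0.80 and 0.51. CD8b antibody reads the protein of a gene of the rule and was used to choose the strict set, so its ratio is no independent result.

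In B cells of the library the log2 ratio was 0.97 for CD366, 0.27 for CD223 and 0.15 for CD279, smaller in each case than in CD8 T cells. In CD4 T cells it was 2.86 for CD366, 1.49 for TIGIT, 0.93 for CD279 and 0.91 for CD223. These antibody differences were thus not particular to CD8 T cells. Among receptors with higher counts, CD49d, the integrin α4 chain, took 4.33% of antibody counts in unnamed and 2.50% in WT cells, a log2 ratio of 0.79 (0.78 to 0.81), while its transcript Itga4 had only 0.27 (0.19 to 0.36). In CD4 T cells the log2 ratio of CD49d was 1.37. CD122, the IL-2 and IL-15 receptor β chain, was at 0.78 (0.74 to 0.82), and its transcript Il2rb at 0.07 (0.01 to 0.13).

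Of the 3 lower antibodies, CD103 and CD49a mark cells that stay in tissue. CD103 took 0.187% of antibody counts in unnamed and 0.611% in WT cells, a log2 ratio of -1.70 (-1.74 to -1.67), and CD49a was at -1.16 (-1.19 to -1.14). The third, Ly-6G, had 5 and 1 counts and gives no information. Transcripts and proteins thus went the same way for the pairs Havcr2 and CD366, Lag3 and CD223, Tigit and TIGIT, Pdcd1 and CD279, Itgae and CD103, and Itga1 and CD49a. For Il2ra and CD25 they did so only within CD44-high cells. Klrb1c and NK1.1 went opposite ways. Within CD44-high cells Ccr7 was higher in unnamed cells, while CD197, the antibody to its protein, was at -0.13.

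**Figure D2:**
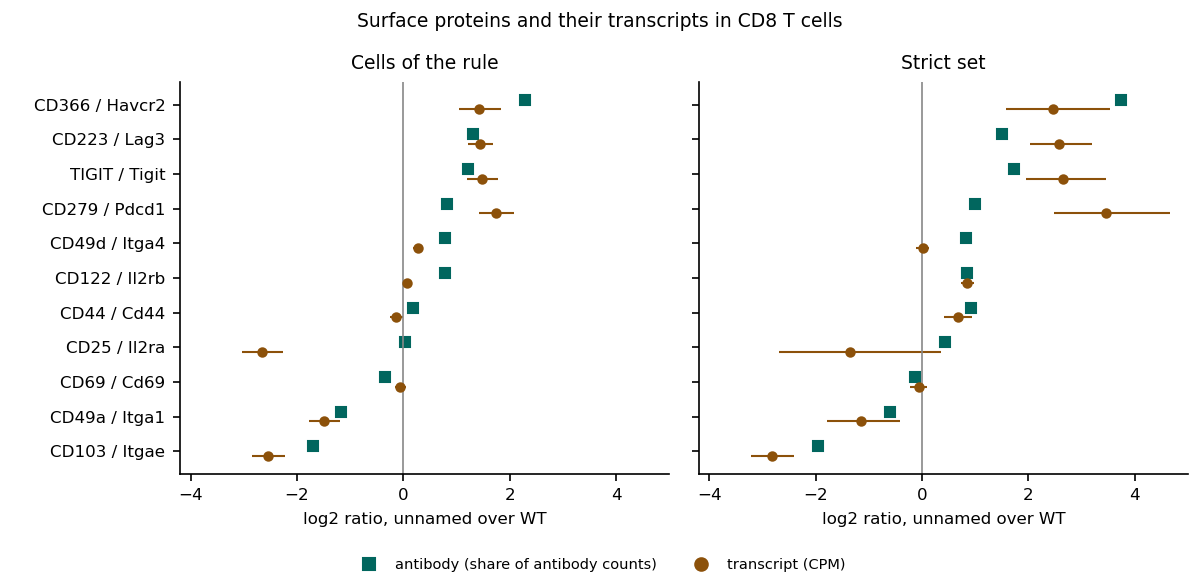
Log2 ratio of unnamed over WT CD8 T cells for 11 surface proteins (squares, share of antibody counts) and for the transcripts that encode them (circles, CPM, with 95% intervals), in the cells of the rule and in the strict set. Inhibitory receptors lie to the right of 0 and CD49a and CD103 to the left in both panels, and CD25 lies near 0 in the left panel while Il2ra lies at -2.65.

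Many genes of naive and central memory cells were lower in unnamed cells. Lef1, a factor of naive T cells, was at 136 CPM in unnamed and 319 CPM in WT cells, a log2 ratio of -1.23 (-1.34 to -1.12). Bach2, which holds back effector genes, was at -1.37 (-1.57 to -1.16). Further genes of naive CD8 T cells, Igfbp4 and Dapl1, were at -1.83 (-1.98 to -1.67) and -1.69 (-1.90 to -1.48). Il7r, the IL-7 receptor, and Tcf7, which encodes TCF1, were lower by less, at -0.42 (-0.48 to -0.36) and -0.45 (-0.53 to -0.37), and Klf2, which keeps T cells in circulation, was at -0.01 (-0.09 to 0.07). Of the 25 genes of this list 9 were 2-fold or more lower, 0 were 2-fold or more higher and the median was -0.45. In the strict set the count of lower genes was also 9 and the median -0.74, with 3.48% of genes past 2-fold lower there at the same minimum of 30 UMIs and 1.72% of those with 100.

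Ccr9, the chemokine receptor that directs lymphocytes to the small intestine (plus strand of chromosome 9 from 123678439 to 123784330), had the lowest ratio of all ranked genes. It stood at 15.3 CPM in unnamed and 167 CPM in WT cells, a log2 ratio of -3.45 (-3.63 to -3.26), from 552 and 438 UMIs. The ratio was -4.31 (-4.67 to -3.95) in the strict set and -2.73 (-2.98 to -2.48) with WT limited to cells named CD8. Plasmacytoid dendritic cells also express Ccr9, 16 of the WT cells bore that name, and their part in the ratio was not tested. Itgae, which encodes the CD103 chain that binds E-cadherin, was at 8.19 CPM in unnamed and 47.7 CPM in WT cells, a log2 ratio of -2.54 (-2.85 to -2.23), and at -2.83 (-3.22 to -2.41) in the strict set. P2rx7, a receptor for extracellular ATP, was at -2.45 (-2.71 to -2.18). Cd226, an activating receptor that shares its ligands with TIGIT, was at -1.61 (-1.80 to -1.43) and kept -1.38 (-1.68 to -1.07) in the strict set.

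The direction of the tissue residency list depended on the cells compared. Of its 17 genes 1 was past 2-fold higher and 4 were past 2-fold lower, beside 5.41% and 4.57% of all genes. The median of the list was -0.09. Within CD44-high cells 0 were past 2-fold higher and 7 lower, with a median of -0.53, beside 5.15% of all genes past 2-fold lower there. In the strict set 4 were higher and 3 lower, with a median of 0.46, beside 7.44% and 3.48% of all genes. The 4 lower genes in the cells of the rule were Itgae, Itga1, which encodes CD49a (log2 ratio -1.49, -1.78 to -1.18), P2rx7 and Zfp683, the gene of the residency factor HOBIT, which had 49 and 20 UMIs. Cxcr6, a receptor of cells that patrol liver sinusoids, was at -0.47 (-0.59 to -0.36) against 0.45 (0.19 to 0.73) in the strict set. Cd69, which holds T cells in tissue and also follows activation, was at -0.06 (-0.16 to 0.05).

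**Figure D3:**
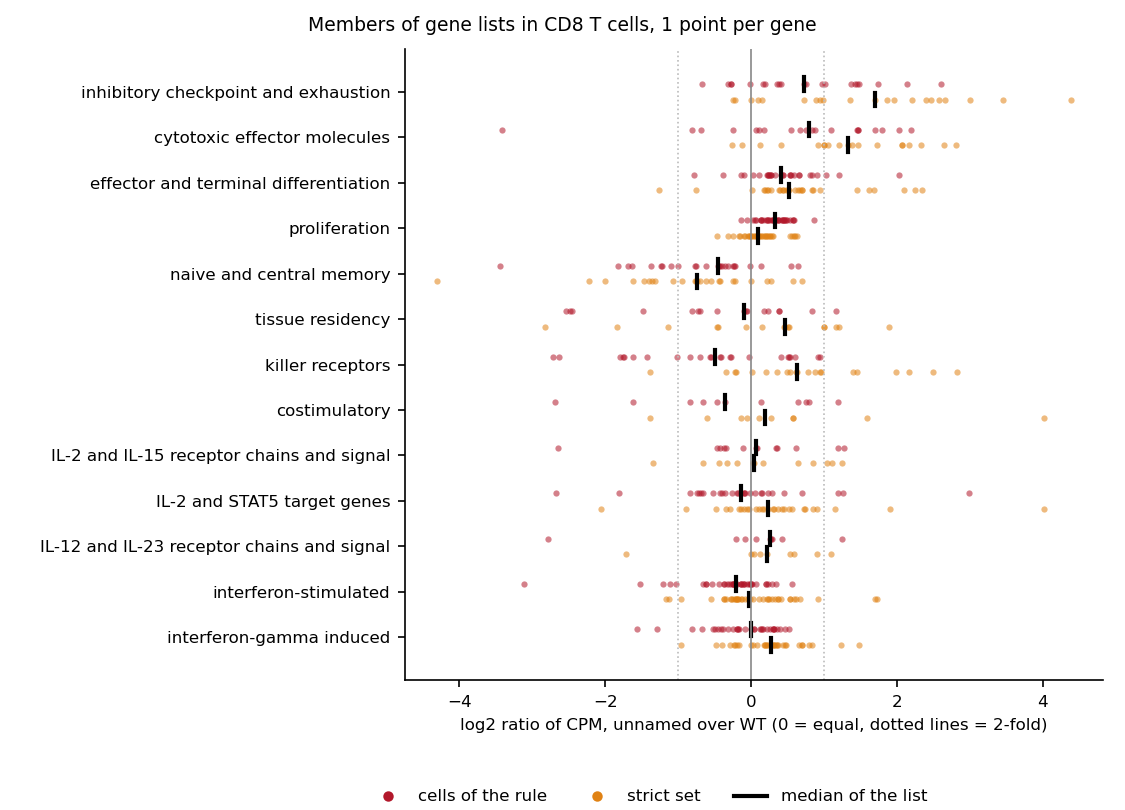
Log2 ratio of unnamed over WT CD8 T cells for each member of 13 gene lists with at least 30 UMIs, in the cells of the rule (red) and in the strict set (orange), with the list's median as a black bar and 2-fold as dotted lines. A gene with 0 UMIs in 1 group is drawn at its bound of 3 counts. The checkpoint and cytotoxic medians lie right of 0 and the naive median left of 0 in both sets. The medians of the killer receptor, residency, costimulatory, IL-2 and STAT5 target and IFN-γ induced lists change side.

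Receptor chain and signal genes of IL-2 and IL-15 had a median of 0.07 over 13 genes, and those of IL-12 and IL-23 a median of 0.26 over 9 genes. Il2rg, the shared γ chain, was at -0.11 (-0.18 to -0.04), and Il15ra, which presents IL-15, was higher at 32.3 CPM in unnamed and 14.1 CPM in WT cells. Il12rb2, the signalling chain of the IL-12 receptor, was lower at 3.44 CPM in unnamed and 23.7 CPM in WT cells, a log2 ratio of -2.78 (-3.23 to -2.32). It rested in the strict set on 26 and 4 UMIs and was at -1.72 (-3.24 to 0.26). With WT limited to cells named CD8, Il12rb2 was at -1.06 (-1.89 to -0.12). Il12rb1 was at 0.29 (-0.11 to 0.72) and Stat4, which carries the IL-12 signal, at 0.07 (-0.10 to 0.24).

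Of the 29 genes of the IL-2 and STAT5 target list, 3 were past 2-fold higher and 2 lower, beside 5.41% and 4.57% of all genes. The median of the list was -0.14. The median was -0.44 in CD44-high cells (1 higher and 6 lower) and 0.60 over the 26 genes measured in CD44-low cells (9 higher and 1 lower). Of all genes with at least 30 UMIs, 4.40% were past 2-fold higher and 5.15% lower in CD44-high cells. In CD44-low cells these shares were 14.9% and 5.53%. The median of the list was 0.23 in the strict set and 0.13 with WT limited to cells named CD8. Socs2, a feedback inhibitor of cytokine signals, was at 6.39 CPM in unnamed and 40.8 CPM in WT cells, a log2 ratio of -2.68 (-3.01 to -2.33), and at -0.89 (-2.35 to 1.04) in the strict set, where WT had 4 UMIs. Cish, another such inhibitor, was at -0.19 (-0.46 to 0.09), and Pim1, a STAT5-dependent kinase, at -0.71 (-0.77 to -0.64). Bcl2, a survival gene, was at 0.06 (-0.05 to 0.17). Lta, the gene of lymphotoxin α, was lower with 106 and 27 UMIs. Higher members were Tnfrsf9 (4-1BB) at 1.19 (0.82 to 1.58), Syt11 at 1.25 (1.00 to 1.52) and Il10, with 218 and 2 UMIs and a log2 ratio of 2.99 (1.12 to 6.04). Tnfrsf9 is a costimulatory receptor, Syt11 a vesicle protein and Il10 encodes a cytokine that restrains inflammation.

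CD44, a surface protein of antigen-experienced T cells, was used to split the CD8 T cells. The gate, at a centred log ratio of 2.45, came from a mixture of 2 normal distributions fitted to all T cells of the library. CD44-high cells were 69.7% of unnamed (5927 of 8502, 68.7 to 70.7) and 57.3% of WT cells (412 of 719, 53.6 to 61.0), a difference of 12.4 percentage points (8.71 to 16.2). The WT cells fell into a low and a high peak, whereas the unnamed cells had 1 broad peak. The difference was 38.2 percentage points in the strict set, but -1.07 points when the gate was set instead at the median raw CD44 count of T cells, and 1.29 points among the 713 unnamed and 53 WT cells with no UMI of B cell, plasma cell, myeloid, erythroid and hepatocyte genes. The myeloid list holds Ccr9, so this last set left out every cell with Ccr9, which is also in the naive list. The CD44-low unnamed cells had a median of 408 antibody counts of all kinds, against 1786 in CD44-low WT cells and 1741 in CD44-high unnamed cells.

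CD44-low cells of the 2 groups had unlike transcripts. The WT ones had the genes of naive cells, with Lef1 at 563 CPM and Il7r at 1092 CPM, and those without a name had 62.7 CPM and 155 CPM. The naive list summed to 5271 CPM in CD44-high and 8155 CPM in CD44-low WT cells. In unnamed cells the order was reversed, at 5743 CPM and 2172 CPM. The cytotoxic list summed to 13138 CPM and 6624 CPM in WT cells, and to 21637 CPM and 55437 CPM in unnamed cells. The gate thus set naive cells apart in the WT group only. Among CD44-low cells, Ccl5 was at 38875 CPM in unnamed and 3029 CPM in WT cells, a log2 ratio of 3.68 (3.63 to 3.74). Gzmk was at 3.62 (3.22 to 4.05), Pdcd1 at 3.52 (2.87 to 4.26) and Ccl3 at 3.39 (3.11 to 3.68). Serpina3g, a protease inhibitor of activated T cells, was at 3.47. The genes ranked lowest there were Ccr9, Tdrp, Igfbp4, St6gal1, Dapl1 and Itgae, between -4.05 and -3.59.

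The Cd44 transcript itself was higher in CD44-low unnamed than in CD44-low WT cells, at 89.9 CPM and 31.9 CPM. With only cells of 500 or more antibody counts, 1086 unnamed and 284 WT cells stayed CD44-low, and the log2 ratio was 4.09 for Ccl5, 4.12 for Gzmk and -2.65 for Lef1. Of 7519 genes in CD44-low cells 13% were 2-fold or more higher and 3.64% 2-fold or more lower. The list medians were 2.45 for cytotoxic, 2.50 for checkpoint, -2.67 for naive and 1.19 for proliferation genes, beside 0.18 over all genes. Some markers of other cells were also higher in CD44-low unnamed cells, while B cell and myeloid genes summed to less there than in WT cells. The erythroid genes summed to 344 CPM and 31.9 CPM (unnamed and WT) with 5 of 5 past 2-fold higher, the γδ T cell genes to 408 CPM and 81.3 CPM with 2 of 4, and the NK and NKT genes, which include Gzma and Eomes, to 5249 CPM and 1137 CPM with 3 of 7. Within CD44-high cells the order of these 3 sums was reversed. In unnamed and WT cells they were 50.2 CPM and 502 CPM, 140 CPM and 465 CPM, and 1405 CPM and 1867 CPM. The part of these markers in the list medians was not tested.

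By the share of genes past 2-fold, the groups were closer within CD44-high than within CD44-low cells. Of 9857 genes in CD44-high cells, 268 (2.72%) were 2-fold or more higher in unnamed and 273 (2.77%) 2-fold or more lower. Over all CD8 T cells these shares were 3.85% and 2.5%, so the share of lower genes was not smaller in CD44-high cells. As the gate set naive cells apart in the WT group only, the 2 CD44-high groups need not be matched in kind. Gzmk was at 1.60 (1.38 to 1.84), Eomes at 1.68, Tox2 at 2.16 (1.34 to 3.11), Pdcd1 at 0.85 (0.48 to 1.25), Ccl5 at 1.06 (1.03 to 1.08) and Prf1 at 1.01 (0.79 to 1.25). Gzmb was at 0.02 (-0.08 to 0.12), with an interval that held 0, and Ifng was lower at -0.69 (-0.85 to -0.52). The median of the checkpoint list was 0.23, that of the cytotoxic list 0.08 and that of the naive list 0.01. Some naive or memory genes were higher in CD44-high unnamed cells, among them Ccr7, the lymph node homing receptor, at 1.07 (0.77 to 1.39) and Igfbp4 at 1.14 (0.68 to 1.64). CD62L antibody, a further marker of naive and central memory cells, took 5.49% of antibody counts in CD44-high unnamed and 3.99% in CD44-high WT cells. Over all CD8 T cells its order was the reverse, with 4.95% in unnamed and 5.63% in WT cells and a median of 8 and 43 counts per cell. The log2 ratio was -0.19 (-0.20 to -0.17) there and -0.37 in the strict set.

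The genes lowest in CD44-high unnamed cells included Il4 at -3.54 (-4.14 to -2.94), Il12rb2 at -3.20 (-3.66 to -2.72) and Socs2 at -3.07 (-3.41 to -2.72), of which Il4 and Il12rb2 are expressed by NKT and activated helper T cells. In CD44-high cells of the strict set, of which 4235 were unnamed and 120 WT, the checkpoint median was 0.84 with 10 of 21 genes past 2-fold higher, and the cytotoxic median 0.50 with 5 of 19. At the same minimum of 30 UMIs 5.55% of genes there were past 2-fold higher and 4.74% past 2-fold lower, and of the 9093 genes with 100 UMIs 5.59% and 2.47%. Gzmk stood at 2.12 (1.62 to 2.68), Pdcd1 at 3.73 (1.88 to 6.78) from 1003 and 2 UMIs, and Tox at 2.07 (1.52 to 2.69) in these cells, and Ccr9 at -2.85 (-3.61 to -2.01). Of 37 proliferation genes 3 were past 2-fold lower and 0 higher there, and the median was -0.57.

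**Figure D4:**
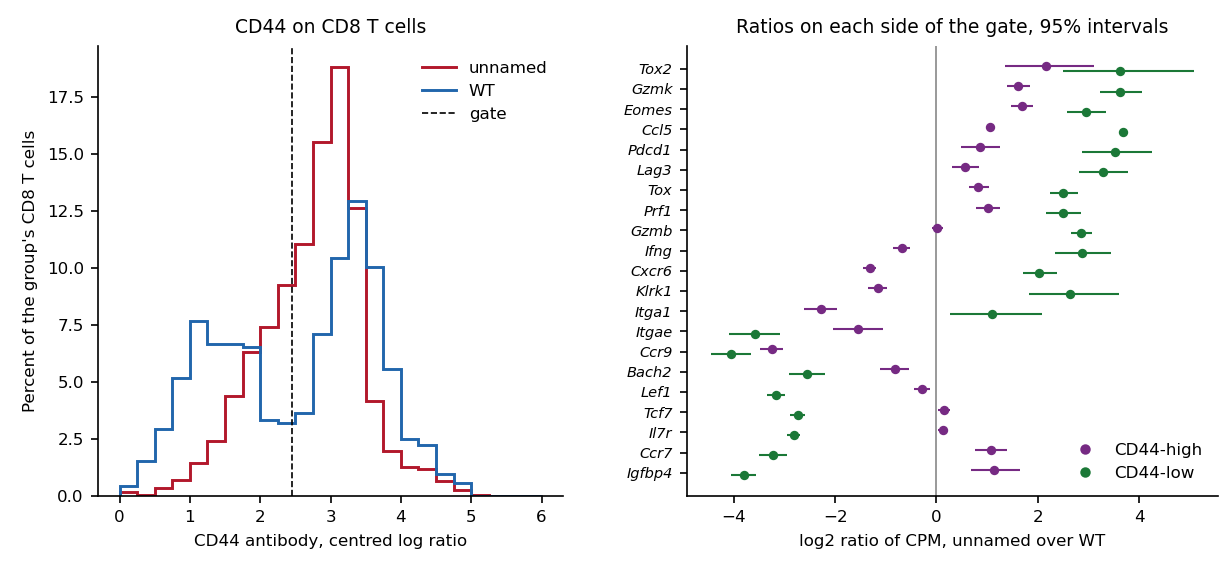
Left, percent of unnamed (red) and WT (blue) CD8 T cells by the centred log ratio of CD44 antibody, with the gate as a dashed line. Right, log2 ratio of unnamed over WT for 21 genes in CD44-high (purple) and CD44-low cells (green) with 95% intervals. WT cells form 2 peaks and unnamed cells 1, and the ratios lie further from 0 in CD44-low cells for all but Itga1, with opposite signs for several genes.

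The same genes differed in the share of cells that held them. Each cell was thinned to 1000 UMIs so that depth was equal, which left out no cell, and shares of cells with at least 1 UMI were counted. Gzmk was found in 30.5% of unnamed (29.5 to 31.5) and 5.98% of WT cells (4.36 to 7.97), and in 1.67% and 1.28% of unnamed and WT B cells, which should lack it. Eomes was found in 29.7% of unnamed (28.8 to 30.7) and 5.01% of WT cells (3.53 to 6.86), with 1.39% and 1.08% of B cells, and Tox in 27.8% of unnamed (26.8 to 28.7) and 9.18% of WT cells (7.17 to 11.5), with 1.58% and 1.41% of B cells. Pdcd1 was found in 10.2% of unnamed (9.61 to 10.9) and 2.78% of WT cells (1.71 to 4.26), with 0.371% and 0.135% of B cells. Ccl5 was found in 94.8% of unnamed (94.3 to 95.3) and 54.0% of WT cells (50.2 to 57.7), and 21.8% and 20.3% of B cells also had it. Where the Ccl5 UMIs of B cells came from was not tested. Lef1 showed the reverse order, with 9.67% of unnamed (9.05 to 10.3) and 25.9% of WT cells (22.7 to 29.2). Ccr9 was found in 0.964% of unnamed (0.768 to 1.20) and 13.1% of WT cells (10.7 to 15.8). In B cells Lef1 was found in 1.11% and 1.28% and Ccr9 in 1.02% and 0.943%, so the share of unnamed CD8 T cells with Ccr9 was at the level of this background.

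Before thinning the shares were 54.5% and 14.5% for Gzmk, 62.1% and 17.5% for Eomes and 31.6% and 54.9% for Lef1, at median depths of 3621 and 3113 UMIs in CD8 T cells and 2366 and 2083 in B cells. Among unnamed cells thinned in this way, the 2594 with Gzmk held Tox in 39.9% and the other 5908 in 22.5%. For Pdcd1 these shares were 15.8% and 7.80%. Only 43 WT cells had Gzmk, of which 8 had Tox and 5 had Pdcd1.

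Genes with too few UMIs in either group, such as Il10, and several gene classes were not ranked, by rules given with the processing. Among the ranked genes, the 12 highest ratios in unnamed cells included 4 genes of neutrophils and other myeloid cells. These were Ngp (log2 ratio 3.17, 2.81 to 3.55), Camp (log2 ratio 3.08, 2.48 to 3.76), Lcn2 (log2 ratio 2.33, 1.91 to 2.78) and Lyz2 (log2 ratio 2.03, 1.75 to 2.34), which encode granule proteins and lysozyme. Their UMIs lay in few cells, with 24.4% of those of Ngp in 3 of the unnamed cells. After thinning, Ngp was found in 2.79% of unnamed (2.45 to 3.16) and 1.67% of WT cells (0.865 to 2.90), and in 2.50% and 3.57% of B cells, so the shares in CD8 T cells were at the level of this background. The summed counts of these genes were higher in other unnamed cells too. The log2 ratios of Ngp, Camp, Lcn2 and Lyz2 were 1.52, 1.33, 2.80 and 2.83 in B cells. In CD4 T cells they were 4.52, 4.13, 3.78 and 0.57. Among cells in the middle range of depth and mitochondrial percent the ratios were nearer to 0, with Ngp at 0.35 (-0.10 to 0.84), Camp at -0.13 (-0.80 to 0.61), Lcn2 at 0.05 (-0.45 to 0.59) and Lyz2 at 0.98. Lcn2 was at -1.04 (-3.18 to 2.15), from 13 and 2 UMIs, among cells with no UMI of other lineages. The 20 myeloid genes, Ccr9 among them, summed to 1436 CPM and 1043 CPM (unnamed and WT), the 12 B cell genes to 393 CPM and 471 CPM and the 6 genes of MHC class II to 561 CPM and 1168 CPM, with a median log2 ratio of -1.06 for the last. With WT limited to cells named CD8 the direction of MHC class II turned, with 561 CPM and 279 CPM and a median of 1.06, and the myeloid genes summed to 1436 CPM and 424 CPM with a median of 1.66 and 13 of 16 past 2-fold higher. In strict cells the MHC class II median was -0.031. How far such transcripts entered other values was not tested.

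The other 8 of the 12 were Tox2, Gzmk, Rgs16, Gzmm and Eomes, given above, and Bag3, Fcgrt and Cd22. Bag3, a co-chaperone, was at 21.4 CPM in unnamed and 4.96 CPM in WT cells and at 3.58 (1.72 to 6.63) in the strict set, where WT had 2 UMIs, and it had 41 and 0 UMIs without cells that held UMIs of other lineages. Fcgrt, the neonatal Fc receptor, was at 64.0 CPM in unnamed and 15.6 CPM in WT cells, and Cd22, an inhibitory lectin best known from B cells, at 28.0 CPM in unnamed and 6.87 CPM in WT cells. Fcgrt was at 2.25 (1.71 to 2.84) in CD44-high and at -0.22 (-1.06 to 0.74) in CD44-low cells, and the difference was not tested. In B cells of the library Cd22 was at 0.37 and Fcgrt at 0.53.

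Of the 12 lowest, several are genes of the other cell types among the WT cells. Siglech and Cox6a2, which plasmacytoid dendritic cells express, and Cd300c, Sdc4 and Klrb1b had ratios between -3.07 and -2.69. With WT limited to cells named CD8, WT had 2 UMIs of Siglech, 1 of Cd300c, 0 of Cox6a2, 3 of Sdc4 and 4 of Klrb1b. The log2 ratio was then 3.94 (2.08 to 6.99) for Siglech and 2.53 (0.02 to 7.84) for Cd300c, so nearly all WT UMIs of these genes lay in cells of other names. The unnamed cells, which have no cell type names, could not be limited in that way. Il4, the gene of interleukin-4, had 63 and 42 UMIs and in the strict set 7 and 0 UMIs. With WT limited to cells named CD8 it had 63 and 11 UMIs and was at -1.80 (-2.74 to -0.73). The ratios of St8sia1, a sialyltransferase (log2 ratio -3.01, -3.43 to -2.58), Kcna2, a potassium channel (log2 ratio -3.15, -3.73 to -2.55), and Ramp1, part of the CGRP receptor (log2 ratio -2.91, -3.28 to -2.53), kept their direction and were -3.89, -3.85 and -3.36 in the strict set. Cd40lg, the CD40 ligand, was at -2.69 (-3.12 to -2.24) and -3.32, with 15 and 7 UMIs in the strict set. With WT limited to cells named CD8, Cd40lg was at -1.35 (-2.06 to -0.55) and Ramp1 at -2.14 (-2.65 to -1.59). Cd40lg was at -1.71 (-2.39 to -0.97) with Cd8b1 at 2 or more UMIs, and it had 9 and 1 UMIs without cells that held UMIs of other lineages.

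**Figure D5:**
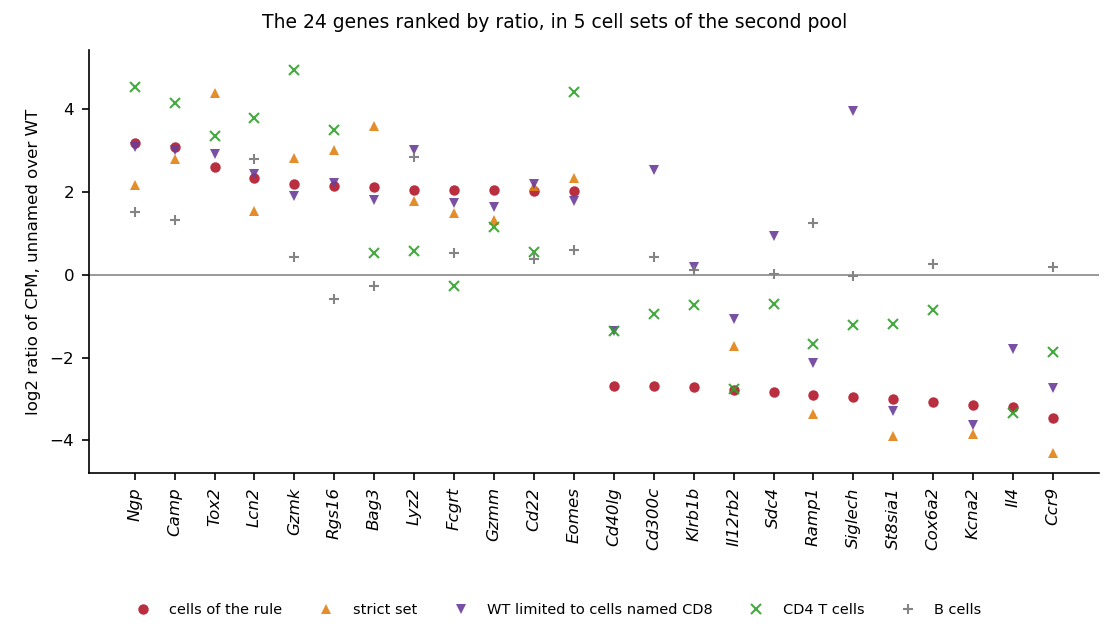
Log2 ratio of unnamed over WT for the 12 genes ranked highest and the 12 ranked lowest in CD8 T cells, in the cells of the rule, in the strict set, with WT limited to cells named CD8, in CD4 T cells and in B cells of the same library. A symbol is left out where a gene had under 30 UMIs or was at 0 in 1 group. Gzmk, Eomes, Rgs16 and Tox2 are high in CD8 and CD4 T cells, and Siglech, Cd300c, Sdc4 and Klrb1b lie above 0 when WT is limited to named CD8 cells, with 4 or fewer WT UMIs each.

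The killer receptor list changed direction with the choice of cells. By the rule its 24 genes had a median of -0.49, with 0 past 2-fold higher and 8 past 2-fold lower, led by Klrb1b and Klrb1c. Of all genes with at least 30 UMIs, 5.41% were past 2-fold higher and 4.57% lower. With WT limited to cells named CD8 the median of the list was 0.43. There 5 were past 2-fold higher and 4 lower, beside 7.53% and 2.80% of all genes. With Cd8b1 at 2 or more UMIs the median of the list was 0.17. The strict set is no independent reading of this list, since it leaves out cells with Klrb1c in both groups. There the median of 21 genes was 0.63, with 6 past 2-fold higher, beside 7.44% of all genes. Among the 6 were Cd244a (log2 ratio 2.82, 1.69 to 4.27), an inhibitory and activating SLAM receptor, and Klre1 (log2 ratio 2.16, 1.68 to 2.69). Klrk1, which encodes NKG2D, was at -0.55 (-0.73 to -0.37) by the rule and 0.54 (0.12 to 0.99) in the strict set. Counts of Ly49 genes such as Klra8 can be split among near-identical copies, and they are uncertain.

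Of 29 effector genes 3 were 2-fold or more higher in unnamed cells (Eomes, Prdm1 and S100a6) and 0 were 2-fold or more lower. Beside them, 5.41% of all genes with at least 30 UMIs were past 2-fold higher and 4.57% lower. The median of the effector list was 0.41. The median was 0.039 within CD44-high cells and -0.056 in the CD44-high cells of the strict set. Prdm1, the gene of BLIMP-1, was at 63.2 CPM in unnamed and 27.5 CPM in WT cells, a log2 ratio of 1.20 (0.86 to 1.56). Klrg1 and Cx3cr1, markers of terminal effector cells, were at 0.53 (0.19 to 0.89) and 0.80 (0.42 to 1.22). Genes of the cell cycle had 0 of 37 past 2-fold, a median of 0.33 and Mki67 at 149.8 CPM in unnamed and 112 CPM in WT cells, but with WT limited to named CD8 cells the median was -0.066.

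The median was -0.20 for 41 interferon-stimulated genes, of which 5 were past 2-fold lower and 0 higher, beside 4.57% and 5.41% of all genes. It was 0.13 with WT limited to cells named CD8 (1 higher and 1 lower) and -0.025 in the strict set (2 and 2). In the cells of the rule the median was 0.00 for 33 IFN-γ induced genes, -0.37 for 14 TGF-β response genes, of which 12 were below 0 and 2 were past 2-fold lower, 0.21 for 16 genes of glycolysis and 0.08 for 28 of oxidative phosphorylation. Stress and immediate early genes, which tissue dissociation can raise, had a median of -0.20 with 0 of 29 past 2-fold.

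Part of the pattern was shared by CD4 T cells of the same library (2017 unnamed and 1047 WT cells). There Gzmk stood at 606 CPM in unnamed and 19.6 CPM in WT cells, a log2 ratio of 4.95 (4.60 to 5.32), and Eomes at 4.40 (4.05 to 4.78), Ccl5 at 2.97 (2.93 to 3.00), Pdcd1 at 3.09 (2.59 to 3.65) and Tox2 at 3.35 (2.77 to 3.99). Ccr9 was lower in CD4 T cells too, at -1.86 (-2.06 to -1.65), whereas Itgae was at 0.56 (-0.06 to 1.22). In B cells (1079 unnamed and 1485 WT cells) the log2 ratio was 0.43 (-0.20 to 1.06) for Gzmk, 0.59 (0.03 to 1.17) for Eomes, 0.84 (0.73 to 0.95) for Ccl5, 1.04 (-0.56 to 2.78) for Pdcd1, 1.15 (-0.58 to 3.08) for Tox2 and 0.19 (-0.18 to 0.56) for Ccr9. Ccl3, at 2.03 (1.71 to 2.35), was higher in unnamed B cells as well. These comparisons share the library and the naming of cells, and differences among cell types were not tested.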

How the data were processed

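CD45+ liver cells of both genotypes were captured together on the BD Rhapsody platform. Per the file headers, the authors ran the BD Rhapsody pipeline (version 1.9, aligned to mm10 with STAR), and the deposited UMI counts of transcripts and antibodies per cell carry its distribution-based error correction and no normalization. The filtered and normalized tables were not used, apart from the genotype and cell type names in the cell table. Counts were summed over the cells of each group for 22774 genes. A gene needed at least 100 UMIs over both groups for counts past 2-fold and 30 within lists. Intervals were exact Poisson for levels, conditional binomial for ratios, Clopper-Pearson for shares and Newcombe for differences of shares. A gene at 0 in 1 group was set at 3 counts. The interval code was checked on simulated data.

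The members and the 29 gene lists (493 of 499 genes found) were chosen with earlier results of these data known. Genes named by rank were the 12 highest and 12 lowest ratios in all CD8 T cells, and the 6 and 6 on each side of the CD44 gate, with at least 100 UMIs in all and 10 in each group, under 50% of the UMIs of a group in 3 cells, and the same direction under TMM scaling, totals without ribosomal and mitochondrial genes, and equal weight for each cell. Receptor segments, immunoglobulin, sex-linked and predicted genes were left out, and the other named genes come from the lists. Doublets were called with Scrublet at an expected rate of 6% (5.77% of the library) and were left out only in an alternative. Positions are those of GENCODE for GRCm38. Python 3.11.15, numpy 2.4.6, scipy 1.17.1, pandas 2.3.3, scikit-learn 1.9.0, scanpy 1.11.5 and R 4.3.3 with edgeR 4.0.16 (TMM factors only) were used. Certain genes are not reported here.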

Additional observations from a re-analysis of the deposited data

How the results depend on the processing

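No paired analysis was possible because both groups came from 1 library without replicates, and no sample could be left out. Mice, staining and naming of cells stay joined to the groups. For the 24 genes ranked in all CD8 T cells, 14 alternatives gave 331 ratios (genes at 0 in both groups gave none), of which 224 stayed within their counting interval, 98 moved beyond it and 9 changed sign. Scaling by TMM or by totals without ribosomal and mitochondrial genes, or leaving out cells with Cd4, cells with Trdc or cells whose barcode occurs in both libraries, moved no count or list median beyond its interval or by over 1.5 times. Leaving out cells with Cd4 did move several ranked genes beyond their interval, such as Siglech to -2.10, Cd300c to -1.96 and Cd40lg to -3.19. The cause of the changes below was not tested.

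Without cells with UMIs of other lineages (713 unnamed and 53 WT cells left, none with Ccr9, which is in the myeloid list), 50 genes were past 2-fold lower, 103 were higher and 35 lower in CD44-high cells, and 16 antibodies were past 2-fold. The medians were -0.88 for naive, 1.39 for cytotoxic, 0.64 for effector, 0.79 (sign changed) for killer receptor, 1.36 for checkpoint and 0.15 for residency genes, the CD44-high difference was 1.29 points and Lcn2 was at -1.04. In the strict set 162 genes were past 2-fold lower and 508 higher in CD44-high cells. Il2ra was at -1.35, the medians were -0.74 for naive, 1.33 for cytotoxic, 1.69 for checkpoint, 0.63 for killer receptor, 0.46 for residency and 0.23 for IL-2 and STAT5 target genes, the CD44-high difference was 38.2 points, and Cox6a2 and Sdc4, with 1 WT UMI each, were at 0.17 and 0.23.

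With WT limited to cells named CD8, 635 genes were past 2-fold higher and 150 lower, and 462 and 181 in CD44-high cells. Il2ra was at -1.42, the medians were -0.67 for naive, 0.53 for effector, 0.13 for IL-2 and STAT5 target, 0.43 for killer receptor and -0.066 for proliferation genes (the last 3 with the sign changed), and the CD44-high difference was 25.4 points. Siglech was at 3.94, Cd300c at 2.53, Sdc4 at 0.93 and Klrb1b at 0.17, all with 4 or fewer WT UMIs, and Cox6a2, with 0 WT UMIs, at 1.68 against a floor of 3 counts.

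With Cd8b1 at 2 or more UMIs, Il2ra was at -1.85, the naive median -0.63, the killer receptor median 0.17 and the CD44-high difference 24.1 points. Without called doublets Il2ra was at -3.38 and the cytotoxic median 1.00. With no minimum count 649 genes were past 2-fold higher and 2035 lower, and 505 and 2007 in CD44-high cells. With cells thinned, 106 genes were past 2-fold lower, 173 were higher and 127 lower in CD44-high cells, and the cytotoxic and naive medians were 1.13 and -0.70. With equal weight for each cell Il2ra was at -3.04 and the cytotoxic, checkpoint and naive medians were 1.13, 1.07 and -0.77. Cells in the 5th to 95th percentile of WT cells in depth and mitochondrial percent gave a CD44-high difference of 19.1 points and Ngp at 0.35, Camp at -0.13 and Lcn2 at 0.05. Cells with 500 or more antibody counts gave 25.9 points and a checkpoint median of 0.35. The CD44 gate at the median raw count gave -1.07 points. The strict set, the limit to named CD8 cells, the shared barcodes and the antibody minimum were chosen after seeing the data.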

Other observations

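Costimulatory and death genes differed gene by gene in CD8 T cells. Tnfrsf1b, which encodes TNF receptor 2, was at 80.9 CPM in unnamed and 46.5 CPM in WT cells, a log2 ratio of 0.80 (0.54 to 1.07), and Icos, a costimulatory receptor, was at -0.83 (-0.97 to -0.69) by the rule and 0.11 (-0.19 to 0.43) in the strict set. Of 11 costimulatory genes 1 was past 2-fold higher and 2 past 2-fold lower, beside 5.41% and 4.57% of all genes with at least 30 UMIs. The median of the list was -0.36, and it was 0.19 in the strict set and 0.22 with WT limited to cells named CD8. Fasl, a death ligand, was at 65.3 CPM in unnamed and 36.6 CPM in WT cells, a log2 ratio of 0.83 (0.54 to 1.14). Of 19 apoptosis and survival genes 1 was past 2-fold higher in the cells of the rule, beside 5.41% of all genes. In the strict set 6 were past 2-fold higher, beside 7.44% of all genes. Among TGF-β response genes, Tgfbr3, a co-receptor, was at -1.53 (-1.96 to -1.07) and Pmepa1, a feedback inhibitor, at -0.82 (-1.20 to -0.41). The haemoglobin gene Hbb-bs was at 15.9 CPM in unnamed and 94.6 CPM in WT cells. Its UMIs lay in only 50 of 8502 unnamed and 6 of 719 WT cells. The 8 erythroid genes summed to 111 CPM and 339 CPM (unnamed and WT), against 29.0 CPM and 24.3 CPM in the strict set.

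V segments of the T cell receptor β chain were too thinly covered for WT cells, with 2011 UMIs in unnamed and 100 in WT cells. Of 25 Trbv segments 24 were found. Trbv12-2 had the most UMIs and took 14.1% of unnamed (12.6 to 15.7) and 17% of WT UMIs (10.2 to 25.8). Trbv2 took 12.6% of unnamed (11.2 to 14.1) and 5% of WT UMIs (1.64 to 11.3). No clone can be read from these sums.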
